A study of Rattus norvegicus with 12 samples.

Results

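Genes of iron uptake, iron sensing, heme synthesis and hemoglobin were read in pituitary RNA of male rats, the anterior lobe being a tissue that is fed by many small blood vessels. The set was fixed as *Tfrc*, *Fth1*, *Aco1*, *Ireb2*, *Alas1*, *Alas2*, *Fech*, *Ahsp*, *Hbb* and *Blvrb*, and a probe set belonged to it when the array annotation gave it exactly 1 of these symbols. This gave 10 of the 31099 probe sets on the array, covering 9 of the 10 genes (of 14217 genes with a probe set of their own), with 2 probe sets for *Tfrc* and 1 for each of the others. The only probe set of *Fth1*, the ferritin heavy chain, also lists *Fth1-ps5* and is described apart. All 10 member probe sets were above the signal of 69.5 under which dim probe sets were left out.

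There were 12 arrays, 3 for each of 4 congenic lines, named Ept1, Ept2, Ept6 and Ept9. Each line carries alleles of the Copenhagen (COP) rat on the ACI background, over a segment of chromosome 6 in Ept1, chromosome 3 in Ept2 and Ept6, and chromosome 10 in Ept9. Every male received an implant with 5 mg of the synthetic estrogen diethylstilbestrol (DES) at 9 weeks of age and was killed by decapitation at 21 weeks, after 12 weeks of treatment, with BrdU (50 mg/kg) injected 4 h earlier. No ACI array and no sham-treated array was analysed here, so the reference for a line was the average of the remaining 3 lines, and an effect of DES itself could not be measured. The labels disagree on whether the 3 arrays of a line stand for 3 independent animals or for fewer independent replicates, so that p-values may in part measure technical spread. Perfusion of the animals is not mentioned in the labels. None of the 10 genes lies on chromosome 3, 6 or 10.

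Cells take up iron as transferrin bound to the transferrin receptor, store it in ferritin and sense it through the iron regulatory proteins, which bind hairpins in the RNAs of these same genes. Heme is built from glycine, succinyl-CoA and iron, with 5-aminolevulinate synthase at the entry of the pathway and ferrochelatase at its end. The housekeeping synthase is encoded by *Alas1*, while *Alas2* and the globin genes belong to the red cell lineage, whose youngest circulating cells still hold globin RNA.

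The tissue label was checked against its markers. *Prl*, the prolactin gene of lactotrophs, read 41979 to 51767 and *Gh1*, the growth hormone gene, 27923 to 40693, while *Avp* and *Oxt* of the posterior lobe were dim. In all, 184 of the 18626 probe sets tested (0.988%) differed among the 4 lines in the limma F test after Benjamini-Hochberg adjustment. Of the 10 member probe sets none did. None passed in a single line against the other 3, where 0.193% of all probe sets did in Ept1, 0.773% in Ept2, 0.161% in Ept6 and 0.666% in Ept9. Nor did any member pass between a pair of lines, where the share over all probe sets was 0.102% for Ept1 against Ept2, 0.204% for Ept1 against Ept6, 0.494% for Ept1 against Ept9, 0.628% for Ept2 against Ept6, 0.832% for Ept2 against Ept9 and 0.123% for Ept6 against Ept9. Without adjustment, 4 of the 10 had an F test p under 0.05 (*Ahsp*, *Hbb*, *Alas1* and 1 probe set of *Tfrc*), beside 14.1% of all probe sets tested.

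*Hbb* is the gene of the beta chain of adult hemoglobin. Its signal was 12898, 12954 and 14035 in Ept6, against 17139, 16517 and 15282 in Ept1, 19270, 18023 and 18547 in Ept2 and 17963, 20142 and 28746 in Ept9. All 3 Ept6 arrays lay below the other 9, and replicate 3 of Ept9 stood above every other array. Among all probe sets tested, 1.07% had 3 Ept6 arrays below the rest. Line means were 13296 ± 641 in Ept6, 16313 ± 945 in Ept1, 18613 ± 626 in Ept2 and 22283 ± 5701 in Ept9 (SD, n = 3 each). *Hbb* in Ept6 differed from the other 3 lines by −0.50 on the log2 scale (SE 0.12, limma adjusted p = 0.193), and in Ept9 by 0.46 (SE 0.12, limma adjusted p = 0.165). In a whole gland, fewer cells of a type and less RNA per cell cannot be told apart. The F test gave an adjusted p of 0.139 (limma) across the lines, and an exact permutation of the 12 arrays over all partitions into 4 groups of 3 gave p = 0.000974 for *Hbb* alone, without correction for the other members. With limma's intensity trend in place of a common prior, the adjusted F test p was 0.00823.

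The promoters of *Hbb* and *Alas2* are shown because both genes belong to the red cell lineage. The 150 bases before each RefSeq start are given 5′ to 3′ on the gene's strand, from the GRCr8 assembly, with the letters CACCC, bound by Klf1-type factors, or GATAA, bound by GATA factors, in capitals on either strand.
*Hbb*, chr1:167663722-167663871, minus strand: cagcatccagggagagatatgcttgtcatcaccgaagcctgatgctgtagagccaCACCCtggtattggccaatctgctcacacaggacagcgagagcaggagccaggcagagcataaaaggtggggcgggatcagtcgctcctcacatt
*Alas2*, chrX:22895300-22895449, plus strand: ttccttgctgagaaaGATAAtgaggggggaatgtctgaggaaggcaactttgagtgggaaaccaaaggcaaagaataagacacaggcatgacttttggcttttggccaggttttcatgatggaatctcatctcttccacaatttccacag
The CACCC of *Hbb* lies from position −95 to −91 and the GATAA of *Alas2* from −135 to −131, counted back from the start. Neither overlaps another searched motif. Of 33469 rat promoters in the same table, 35.2% hold CACCC and 14.2% hold GATAA within 150 bases on either strand. The motifs were picked after the sequences were seen, and a match is a description of letters, not of a bound factor.

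*Ahsp* encodes the chaperone that holds free alpha globin. Its signal was 154, 186 and 223 in Ept2 and 154, 165 and 193 in Ept9, against 132, 109 and 114 in Ept1 and 109, 108 and 126 in Ept6. Every Ept2 and Ept9 array lay above every Ept1 and Ept6 array, although Ept2 and Ept9 overlapped each other. This grouping of the lines was seen in the values, and its share over all probe sets was not counted. The Ept2 mean was 188 ± 34.3 and the Ept6 mean 114 ± 10.3 (SD, n = 3 each), a log2 difference of 0.63 (SE 0.13, limma adjusted p = 0.0691). For Ept2 against the other 3 lines the difference was 0.45 (SE 0.11, limma adjusted p = 0.106), and across the lines the F test gave an adjusted p of 0.0802 and the exact permutation p = 0.00636. No pair of lines passed for *Ahsp*, except that Ept2 against Ept6 did with array weights (limma adjusted p = 0.0488) and without replicate 1 of Ept2 (limma adjusted p = 0.0480).

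Probe sets that list several globin genes cannot be assigned to 1 gene. All 5 ran in the order of *Hbb*, with Ept9 highest, then Ept2, Ept1 and Ept6, and replicate 3 of Ept9 was the highest array in each. The 3 that list *Hba-a1* and *Hba-a2*, the alpha globin genes, had highest line means 1.30 to 1.42 times the lowest. The 2 that list *Hbbl1* and *Hbb-bs*, beta globin genes, had 1.83 and 2.25 times. Their limma adjusted F test p ranged from 0.147 to 0.453. The name suffix of the *Hbb* probe set marks probes that can also hybridise to similar transcripts, so its values cannot be told apart from those of its near relatives. *Hba-a1* and *Hba-a2* lie on chromosome 10, the chromosome of the Ept9 segment.

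*Alas2*, the first enzyme of heme synthesis in the red cell lineage, had a signal of 429, 397 and 920 in Ept9, against 431, 439 and 346 in Ept1, 420, 356 and 360 in Ept2 and 372, 263 and 336 in Ept6. The first 2 Ept9 arrays lay within the range of the other lines, and replicate 3, the array with the highest *Hbb*, lay far above every other array. Ept9 differed from the other 3 lines by 0.54 (SE 0.22, limma adjusted p = 0.395), and without that array the F test p was 0.574 after adjustment (limma), against 0.463 with it.

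**Figure D1:**
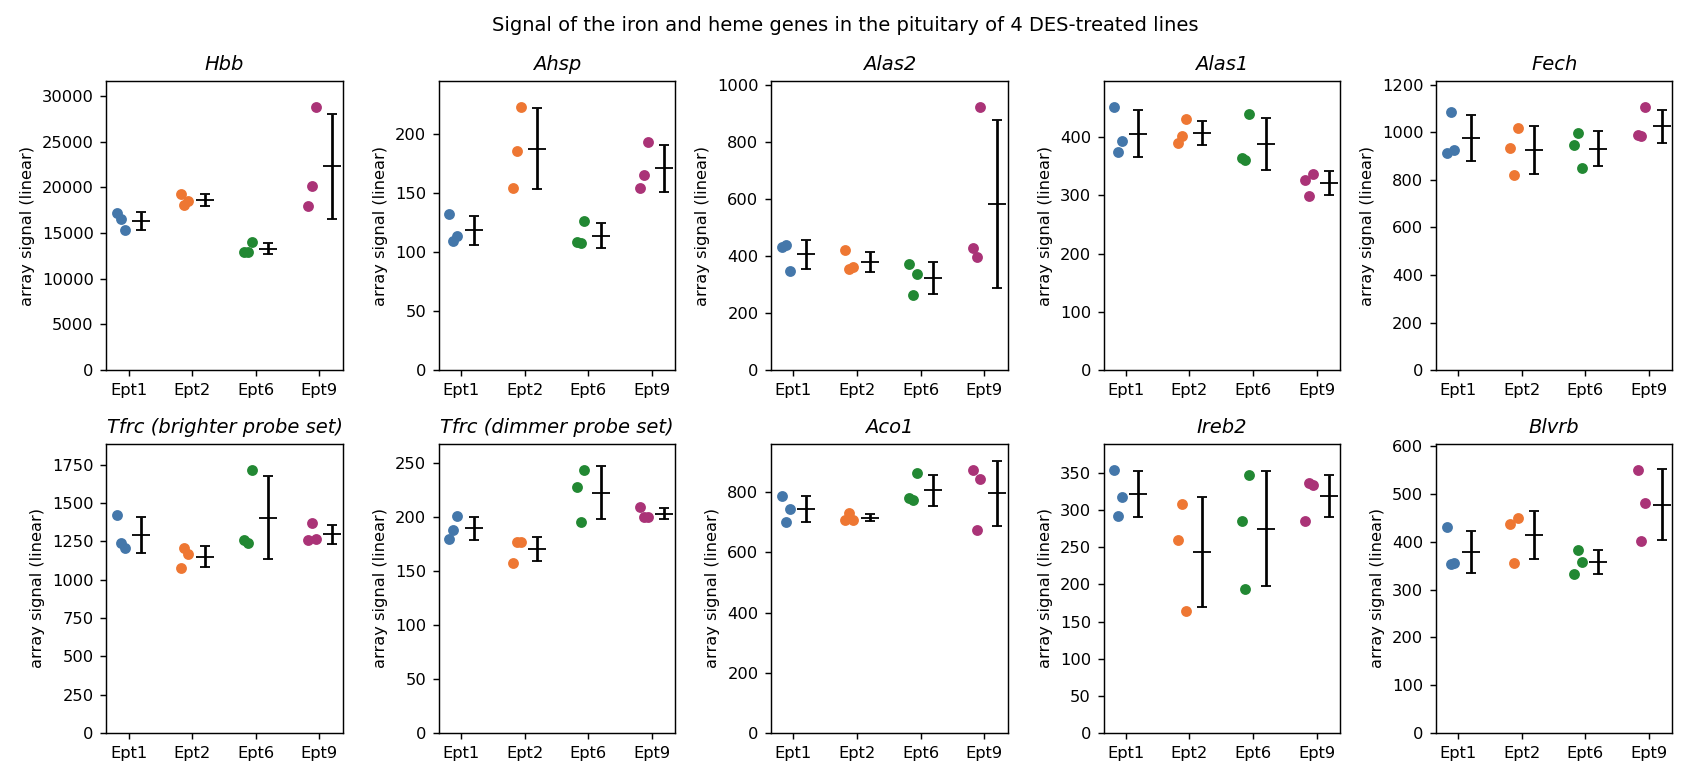
Signal (linear, scaled by the authors) of the 10 member probe sets in the 4 lines, each on its own axis from 0. Points are single arrays, horizontal marks are line means and bars are ± SD (n = 3). The 3 Ept6 arrays are the lowest for *Hbb*, from 12898 to 14035, and replicate 3 of Ept9 stands apart for *Hbb* at 28746 and *Alas2* at 920.

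The housekeeping synthase *Alas1* ran the other way in Ept9. Its signal was 327, 298 and 337 in Ept9, against 451, 374 and 392 in Ept1, 390, 401 and 430 in Ept2 and 364, 360 and 439 in Ept6. The 3 Ept9 arrays lay below the other 9, as did 1.39% of all probe sets tested. The means were 320.5 ± 20.1 in Ept9 and between 388 and 407 in the other lines, a log2 difference of −0.30 (SE 0.09, limma adjusted p = 0.199), and the exact permutation p was 0.00455, the smallest that 220 splits of 1 line against the rest can give. *Fech*, the last enzyme of the pathway, varied from 821 to 1105 with line means of 924 to 1025 (F test in limma, adjusted p = 0.785).

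The promoters of *Alas1* and *Tfrc* are shown beside those above because these genes also serve cells outside the red cell lineage. Capitals mark CACCC in *Alas1* and ACGTG, the core of hypoxia response elements, in *Tfrc*.
*Alas1*, chr8:115768643-115768792, minus strand: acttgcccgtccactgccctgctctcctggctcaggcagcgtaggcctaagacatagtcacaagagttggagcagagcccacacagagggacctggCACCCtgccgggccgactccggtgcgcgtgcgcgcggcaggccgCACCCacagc
*Tfrc*, chr11:81690319-81690468, minus strand: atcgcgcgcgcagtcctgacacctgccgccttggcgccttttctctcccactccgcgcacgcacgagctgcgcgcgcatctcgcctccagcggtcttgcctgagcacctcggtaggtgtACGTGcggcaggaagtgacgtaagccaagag
CACCC occurs at −54 to −50 and −10 to −6 in *Alas1*, ACGTG at −31 to −27 in *Tfrc*, and 10.8% of the 33469 promoters hold ACGTG. Of the 8 member genes with a promoter in the table, *Fech* also holds GATAA on the reverse strand, while *Aco1*, *Ireb2* and *Blvrb* hold none of these motifs in this window.

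*Tfrc*, the transferrin receptor that brings iron into cells, was read by 2 probe sets with the same order of lines, Ept6 highest, then Ept9, Ept1 and Ept2. On the dimmer of them the signal was 158, 177 and 177 in Ept2, against 180, 188 and 201 in Ept1, 228, 196 and 244 in Ept6 and 209, 201 and 201 in Ept9. All 3 Ept2 arrays lay below the other 9, and 1.68% of all probe sets tested did so. The log2 difference of Ept2 from the other lines was −0.24 (SE 0.08, limma adjusted p = 0.181), and the exact permutation across lines gave p = 0.00552. The brighter probe set had means of 1149 ± 68.7 in Ept2, 1288 ± 117 in Ept1, 1403 ± 270 in Ept6 and 1295 ± 61.4 in Ept9 (SD, n = 3 each), and the Ept2 arrays overlapped those of Ept1 on it (F test in limma, adjusted p = 0.616, exact permutation p = 0.274).

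*Aco1* and *Ireb2* encode the iron regulatory proteins IRP1 and IRP2. *Aco1* varied little, from 674 to 874, in the line order of *Tfrc* (F test in limma, adjusted p = 0.707). *Ireb2* ranged from 164 in replicate 3 of Ept2 to 354 in replicate 1 of Ept1, with overlapping lines (F test in limma, adjusted p = 0.620). *Blvrb*, a reductase abundant in red cells that can also act on biliverdin, was 550, 401 and 482 in Ept9, against 354 to 430 in Ept1, 356 to 450 in Ept2 and 332 to 383 in Ept6. Its Ept9 arrays overlapped those of Ept1 and Ept2 but not those of Ept6, a separation whose share over all probe sets was not counted. Ept9 differed from the other lines by 0.30 (SE 0.11, limma adjusted p = 0.356). The ferritin heavy chain probe set shared with *Fth1-ps5* was nearly even, at 27957 to 32047 on all arrays (F test in limma, adjusted p = 0.846).

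To see which members went with the globin signal, *Hbb* was set against each of the other 8 genes across the 12 arrays. *Alas2* (r = 0.85, rho = 0.52) and *Ahsp* (r = 0.75, rho = 0.87) moved with it, with permutation p = 0.00181 and 0.00301 for r, and p = 0.0120 for both after adjustment over the 8 relations. Only the rank correlation of *Ahsp* passed as well (adjusted permutation p = 0.00464, against 0.223 for *Alas2*). Without the arrays farthest from the median of *Hbb*, replicate 1 of Ept6 and replicate 3 of Ept9, r was 0.73 for both. *Blvrb* had r = 0.63 (adjusted permutation p = 0.0734) and *Fech* 0.42. For *Alas1*, *Tfrc*, *Aco1* and *Ireb2* r was −0.32, −0.22, −0.04 and 0.20, with adjusted permutation p from 0.496 to 0.908. Within lines, on deviations from line means, no relation passed. There r was 0.89 for *Alas2* and 0.49 for *Ahsp* (exact permutation p = 0.0525 and 0.0957, both 0.383 after adjustment), 0.04 for *Blvrb*, 0.32 for *Fech* and 0.21 for *Ireb2*. The sign turned for *Alas1* (0.36), *Tfrc* (0.15) and *Aco1* (0.21). Without replicate 3 of Ept9 neither relation passed, with r = 0.63 for *Alas2* (adjusted permutation p = 0.136) and 0.76 for *Ahsp* (adjusted permutation p = 0.0574).

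**Figure D2:**
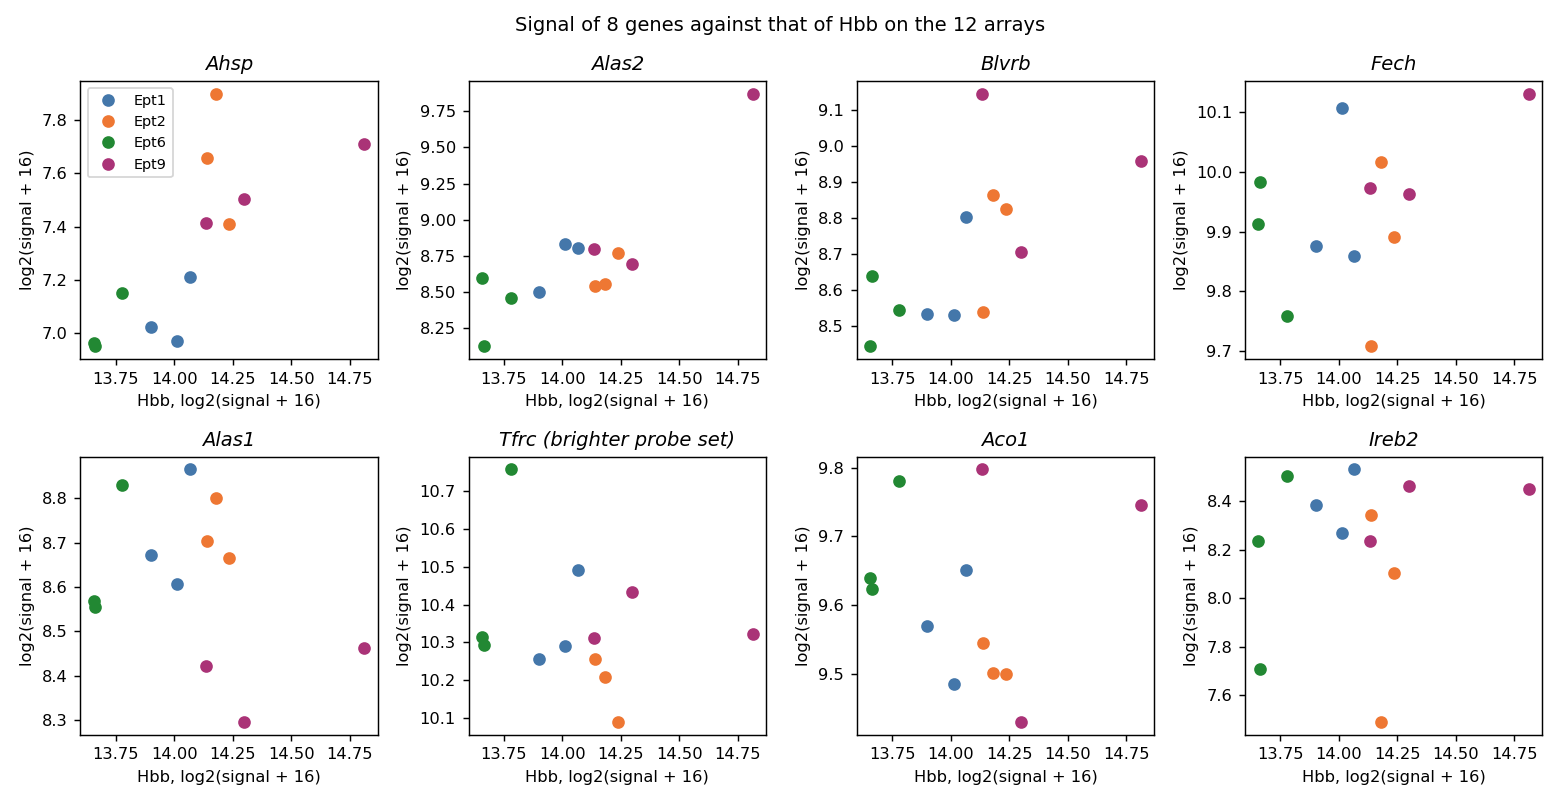
log2(signal + 16) of *Alas2*, *Ahsp* and the other members against *Hbb* on the 12 arrays, with points coloured by line. *Alas2* (r = 0.85) and *Ahsp* (r = 0.75) follow *Hbb*, while *Tfrc* (r = −0.22) and *Alas1* (r = −0.32) did not pass the test.

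Other marker genes of red cells were read only in part. Of 26 listed genes, 16 had a probe set of their own, 7 of these were bright enough to test in 9 probe sets, and 9 were dim throughout, *Klf1*, *Gata1*, *Car1* and *Ank1* among them. None of the 9 probe sets passed the adjusted F test in limma. Without adjustment 1 had a p under 0.05, a probe set of *Epor* with a signal of 9.4 to 137, beside 14.1% of all probe sets tested. The summed signal of the list's probe sets ran from 2986 to 3403 in Ept1, 3176 to 3426 in Ept2, 2847 to 3291 in Ept6 and 2918 to 3339 in Ept9. A large part of this sum came from *Bpgm*, whose probe sets averaged 1160 and 382 over all arrays. The shared globin probe sets were not in it, so the sum does not measure the red cell content of a line. In a family of 16 probe sets set against *Hbb*, all 5 of the shared globin probe sets followed it (r from 0.86 to 0.97). The *Hbb* probe set can hybridise to similar transcripts, so its relation to those that list *Hbbl1* and *Hbb-bs* may in part be 1 signal read again. *Bpgm*, which makes the red cell effector 2,3-bisphosphoglycerate, also followed *Hbb* on its brighter probe set (r = 0.72, permutation p = 0.00606, adjusted permutation p = 0.0162). The ferritin probe set shared by *Fth1* and *Fth1-ps5* passed too (r = 0.70, permutation p = 0.0162, adjusted permutation p = 0.0370), with r = 0.20 without replicate 1 of Ept6 and replicate 3 of Ept9. On deviations from line means none of the 16 relations passed (lowest adjusted exact permutation p = 0.173). *Gypc* (r = 0.38) and the anion exchanger *Slc4a1* (r = 0.13), both red cell membrane genes, did not pass. Nor did *Rhd* (r = 0.05), *Tal1* (−0.33), *Epor* (−0.57, on another and brighter probe set) and the spectrin gene *Sptb* (−0.56). The rank correlation of *Sptb*, however, passed in the negative direction (rho = −0.68, permutation p = 0.0184, adjusted permutation p = 0.0421). The adjustment ran over all 16 relations, and the small p-values of the globin probe sets lower the adjusted p of the others. It was not repeated without the globin probe sets, so the calls of *Bpgm*, the ferritin probe set and *Sptb* depend on that family. All 4 neutrophil genes with a probe set were dim, and of 7 tested probe sets of leukocytes and macrophages none passed the limma F test after adjustment (2 without, *Cd68* and *Cd163*).

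*Hmox1*, *Slc40a1* and *Pf4* differed between the lines, in another order than *Hbb*. *Hmox1*, the inducible heme oxygenase, had a signal of 2015 to 3613 in Ept9, against 254 to 740 in Ept1, 130 to 325 in Ept2 and 839 to 1203 in Ept6. Ept9 differed from the other lines by 2.52 (SE 0.33, limma adjusted p = 0.0105), a contrast in which 0.666% of all probe sets tested passed. *Slc40a1*, ferroportin, the iron exporter, passed the F test in 2 of 3 probe sets (limma adjusted p = 0.0257 and 0.0266, with 0.0652 for the third), and in both Ept9 was the highest line. In Ept2 against the other lines *Hmox1* and 1 probe set of *Slc40a1* also passed, both lower, where 0.773% of all probe sets did (limma). *Pf4*, the platelet chemokine gene, was highest in Ept9 too, at 1114 to 1637, against 534 to 704 in Ept1, 573 to 627 in Ept2 and 628 to 892 in Ept6 (log2 difference 1.08, SE 0.14, limma adjusted p = 0.00940). *Pf4* was the only gene of the platelet list bright enough to test, and *Ppbp*, *Gp9* and *Itga2b* were dim. *Hmox1*, *Slc40a1* and *Pf4* ran from Ept9 through Ept6 and Ept1 to Ept2. The macrophage markers *Cd163* and *Cd68* had the same order of line means without passing the adjusted test. Of the same list, *Csf1r* and *Adgre1* ran in other orders, both highest in Ept1, and did not pass either. Over the list's 7 tested probe sets, 5 were higher in Ept1 than in the other lines (median log2 difference 0.21). In Ept9 4 were higher (median log2 difference 0.003). *Csf1r* averaged 683 in Ept9, 742 in Ept6, 903 in Ept1 and 735 in Ept2. *Adgre1* averaged 354 in Ept9, 297 in Ept6, 450 in Ept1 and 328 in Ept2. *Cd163* averaged 223 ± 112 in Ept9, 176 ± 25.6 in Ept6, 120.4 ± 21.6 in Ept1 and 97.8 ± 23.8 in Ept2 (SD, n = 3 each; F test in limma, adjusted p = 0.251). *Cd68* averaged 698 ± 141 in Ept9, 558 ± 65.3 in Ept6, 484 ± 36.4 in Ept1 and 434 ± 81.3 in Ept2 (SD, n = 3 each; F test in limma, adjusted p = 0.235). The summed signal of the whole leukocyte and macrophage list was 4466 to 5752 in Ept9, 4058 to 4909 in Ept6, 5128 to 5502 in Ept1 and 3679 to 5292 in Ept2, and its lymphocyte markers *Cd3e* and *Cd79b* were dim. The part of these cells in the differences was not tested. Ept6, lowest for *Hbb*, was the next highest line for *Hmox1*, *Slc40a1* and *Pf4*, and their r with *Hbb* was 0.27, 0.21 and 0.52 (adjusted permutation p = 0.495, 0.594 and 0.140). *Hmox1* passed the limma F test without any single array, while *Pf4* did not without replicate 3 of Ept2 or replicate 1 or 3 of Ept9, and *Slc40a1* passed only in some of these fits. The Gapdh 3′ minus 5′ difference, a sign of RNA quality, averaged 0.21 ± 0.06 in Ept9, 0.25 ± 0.01 in Ept1, 0.38 ± 0.06 in Ept2 and 0.14 ± 0.06 in Ept6 on the log2 scale (SD, n = 3 each), and with it as a covariate none of the listed probe sets passed (limma). Its part in these differences was not tested further.

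**Figure D3:**
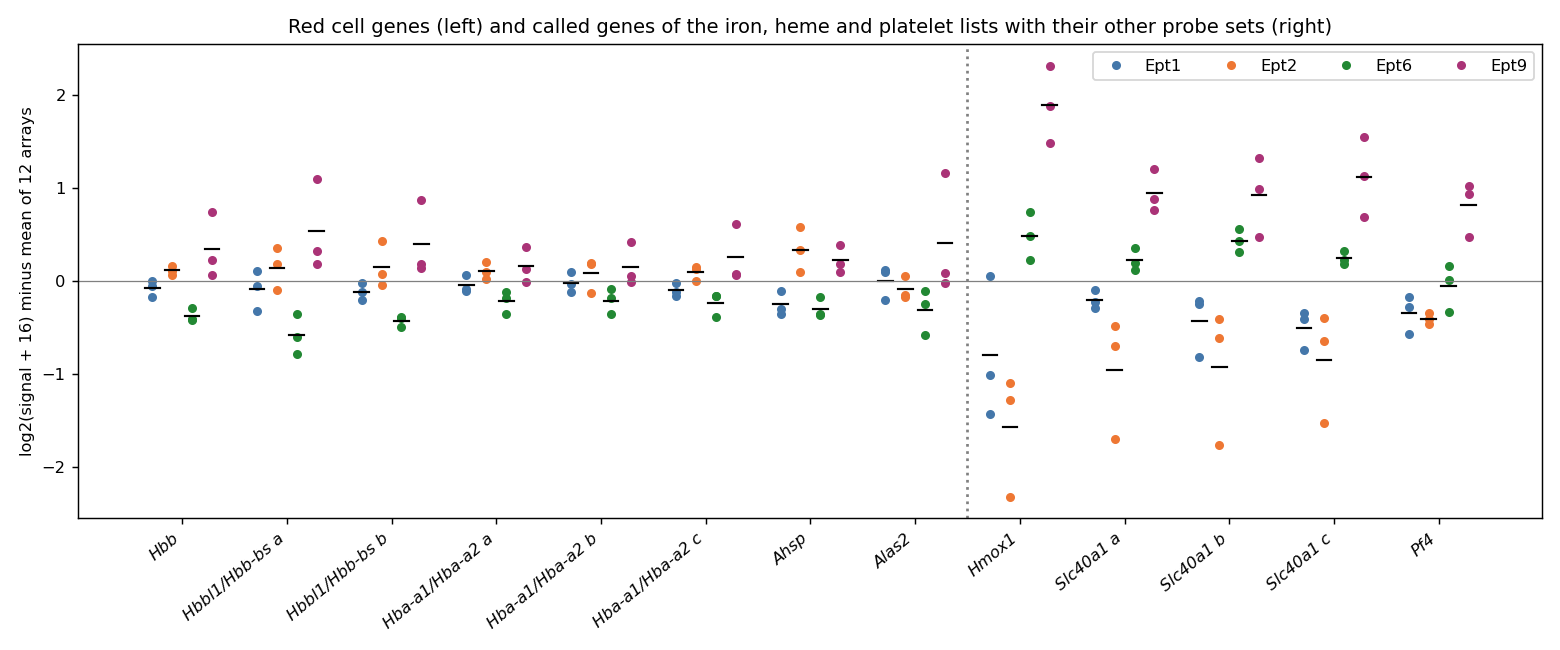
log2(signal + 16) minus its mean over the 12 arrays, for red cell probe sets on the left and for *Hmox1*, *Slc40a1* and *Pf4* on the right, where points are arrays and marks are line means, and letters tell apart probe sets of the same symbols. The Ept6 mean is lowest for *Hbb*, and for *Hmox1*, *Slc40a1* and *Pf4* it comes next after that of Ept9.

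In the wider lists of iron and heme genes, only *Hmox1* and *Slc40a1* held calls. Over all probe sets tested, 0.988% passed the limma F test after adjustment and 14.1% had an unadjusted p under 0.05, the shares to set beside the counts below. Of 11 tested probe sets of iron uptake, 0 passed the limma F test after adjustment and 5 had an unadjusted p under 0.05. These were *Slc11a2* and *Slc39a14*, importers of iron, *Slc39a8*, *Hfe* and *Steap2*. *Slc39a14* read 2143 ± 19.7 in Ept6, 1992 ± 13.5 in Ept1, 1718 ± 150 in Ept2 and 1899 ± 69.8 in Ept9 (SD, n = 3 each), with Ept6 highest. Over storage and export 2 of 12 passed, both *Slc40a1*, and the RNA-binding iron chaperones *Pcbp1* and *Pcbp2* were bright, at 7438 to 8958 and 8045 to 9957, without a difference (limma adjusted p = 0.733 and 0.591). None of the 6 probe sets of iron sensing passed (1 without adjustment, *Hif1a*, which was lowest in Ept6 at 8567 ± 354), and none of the 15 of mitochondrial iron did (1 without, *Nfs1*, highest in Ept9), with *Cisd1* and *Hspa9* the brightest of the list. All 8 further probe sets of heme synthesis, *Urod* and *Tmem14c* being the brightest, had unadjusted p above 0.05. Of 7 of heme breakdown and transport, *Hmox1* was the 1 called (3 without adjustment, with *Slc46a1* and *Slc48a1*), and *Hp*, *Hpx*, *Flvcr2* and *Abcg2* were dim. None of 3 for the heme regulators passed (1 without, *Keap1*).

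The genes most like *Hbb* and like *Tfrc* across the arrays were read off with no test, among tested probe sets with 1 symbol that is no member. The shared globin probe sets, with r up to 0.97 with *Hbb*, were thus left out of this ranking. With *Hbb*, *Prdx2*, a peroxidase abundant in red cells, had the highest r at 0.89 over 12 arrays, followed by *Eloc* (0.88), *Cryz* (0.86), *Hsd17b10* (0.86) and *Snx3* (0.85). *Prdx2* itself varied little, with line means of 10740 in Ept6, 11207 in Ept1, 11605 in Ept2 and 12135 in Ept9. Leaving out the same 2 arrays gave r of 0.68 for *Prdx2* and 0.91 for *Eloc*, with 0.57 for *Snx3*, the lowest of the 5. With the brighter *Tfrc* probe set, *Tbl3* was highest (0.85), then *Acrbp* (0.84), *Man1a1* (0.84), *Tbl2* (0.83) and *Selenon* (0.83). Without the 2 arrays farthest from the median of *Tfrc*, r was 0.53 for *Tbl3*, 0.56 for *Acrbp*, 0.35 for *Man1a1*, 0.35 for *Tbl2* and 0.67 for *Selenon*.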

How the data were processed

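RNA from 12 anterior pituitary samples had been hybridised to 1-colour Affymetrix arrays. The authors deposited 1 table of linear intensity values (signals) that had been scaled so that the trimmed mean of each array, with 2% taken off each end, was 500.18 to 500.19. The software and the background correction were not given in the sources used here. The number of arrays limits the precision. Arrays correlated at 0.966 to 0.983 with each other, and every value column belonged to a sample.

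In the platform annotation 20832 probe sets carry 1 gene symbol, 436 carry several and 9831 carry no symbol. The 57 control probe sets and 12416 probe sets with a mean signal below 69.5, the 40th percentile, were removed, and log2(signal + 16) of the other 18626 was fitted in limma 3.58.1 (R 4.3.3), with an F test among the 4 lines, each line against the other 3, and the 6 pairs of lines. Fold changes on this scale understate the change of dim genes. P-values were adjusted by Benjamini-Hochberg over all 18626, with a threshold of 0.05. Single probe sets were also tested by exact permutation (two-sided, all partitions of the arrays, or 220 splits for 1 line), and correlations with *Hbb* by 100000 permutations, or 1296 exact ones within lines. The members and lists were chosen with earlier results of these data known. Genes named are all members, called genes and the 2 brightest of each pathway list, and the 5 most like *Hbb* and *Tfrc* among tested probe sets with 1 symbol that is no member. Other genes named, among them those with only an unadjusted p under 0.05, were chosen after their values were seen, and not every name the rule gives is printed. Alternatives were other pseudocounts, normalizations and filters, an intensity trend, array weights, a replicate block and leaving out each array. Promoters came from RefSeq (GRCr8).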

Additional observations from a re-analysis of the deposited data

How the results depend on the processing

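The limma fit was repeated under 22 alternatives and the correlations of *Alas2* and *Ahsp* with *Hbb* under 18, in all of which both stayed positive. Calls of member probe sets among the 4 lines, 0 as reported, came to 1 with an intensity trend (*Hbb*) and 1 with array weights (*Ahsp*). In Ept6 and in Ept9 against the other lines there was 1 call each with the trend (*Hbb* in both). Between pairs of lines there was 1 member called with the filter at the 60th percentile and 1 with the trend (*Hbb*), 1 with array weights (*Ahsp*), and 0 to 1 when single arrays were left out (1 without replicate 1 of Ept2). The 4 calls in the pathway and blood lists came to 1 without a filter (*Hmox1*), 1 with a replicate block (*Hmox1*), 0 with the Gapdh 3′ to 5′ difference in the model, which was added after the data were seen, and 1 to 5 without single arrays (1 without replicate 3 of Ept2, replicate 1 of Ept9 or replicate 3 of Ept9). Members that followed *Hbb*, 2 as reported, came to 0 on deviations from the line means, where the r of *Alas1*, *Tfrc* and *Aco1* changed sign, and 0 to 3 without single arrays (0 without replicate 3 of Ept9). The causes were not tested. Replicate numbers did not pair the samples, since the 18 same-number pairs correlated at −0.14 to 0.07 and 4 of 12 arrays correlated best with their own number. The replicate block gave 0 calls among the members.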
